A study of Mus musculus with 14 samples.

Results

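The earliest RNA response of wounded fibroblasts to autologous micrograft (AMG) was read by setting the library AMG-treated 1h against the library Untreated 1h, gene by gene. A gene entered when the mean of its 2 normalised counts was at least 10, which held for 13505 of the 43472 genes in the table. The lowest mean kept was 10.0 and the highest left out was 9.67. The value of a gene is its log2 ratio, log2 of AMG-treated plus 1 over Untreated plus 1, which understates the difference of genes with low counts. A gene is called higher above 1 and lower below -1, and since each side holds 1 library, all values are descriptions with no test.

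Both cultures were primary fibroblasts from the tail tips of C57BL/6 mice, kept in medium with serum and wounded with a scratch. The Untreated cells received no AMG, and the AMG-treated cells received the cell-depleted, soluble fraction of ground mouse skin, mixed 1:10 into their medium. Poly(A) RNA was sequenced from these 2 groups at 1, 5, 12 and 24 h in replicate 1, and again at 5 h in replicates 2 to 4. The labels give neither the age of the mice nor how many animals or cultures stand behind a library, so each side at 1 h is 1 culture of unstated origin.

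Immediate early genes are transcribed within minutes of a stimulus by factors that the cell already holds, without new protein. Their best known members encode the Fos, Jun, Egr and Nr4a transcription factors, which lie downstream of growth factor and MAP kinase signals. NF-kB is also ready-made: IkB proteins hold it in the cytoplasm until a signal such as tumour necrosis factor, interleukin-1 or a microbial ligand removes them. It then switches on chemokines and cytokines together with its own brakes, among them Nfkbia and Tnfaip3. Fibroblasts are known to use this route to call neutrophils and monocytes to a wound.

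The 2 libraries held 23785753 (Untreated) and 13889352 (AMG-treated) reads assigned to genes, within the range of the other 12 libraries (12545537 to 34696529). A floor of 3 reads stood at 2.64 normalised counts without AMG and at 5.22 with it. Cytosolic ribosomal protein genes took 2.50% of the reads without AMG and 5.15% with AMG, against 7.07% in Untreated 5h replicate 1 and 2.29% to 3.51% in the other 11 libraries, and mitochondrial transcripts took 0.865% and 0.876%. All 14 fibroblast markers were above the filter, with Col1a1 at 150551 and 71733 and Vim at 116947 and 132477 normalised counts. Their median log2 ratio was -0.51 (-0.21 after the length correction given in the next paragraph), with 1 higher (S100a4, 1.67) and 1 lower (Col1a1, -1.07). After the correction these 2 stood at 0.26 and -0.58, and 0 of the 14 were called.

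Short transcripts had higher ratios than long ones. Over 13223 genes outside the ribosomal proteins, Spearman's rho of the log2 ratio with the length of the longest annotated transcript was -0.53, a value across genes, which are not independent replicates. The median ratio was 1.08 for the 826 genes under 1000 bases and -0.57 for the 710 genes over 8000 bases. A smooth curve of ratio against length was therefore subtracted, after which rho was -0.00. Over the 10371 of these genes that were neither higher nor lower, rho was -0.47 before and 0.27 after the correction. These genes were picked by their uncorrected ratio, and that choice itself shifts the second value. It therefore cannot say whether a dependence on length remained among them. Most results below are given before and after this length correction, and a cause of the length dependence was not tested. In the pairs at 5, 12 and 24 h of replicate 1 the same rho was 0.49, 0.18 and -0.24, so neither its size nor its sign was shared between times.

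**Figure D1:**
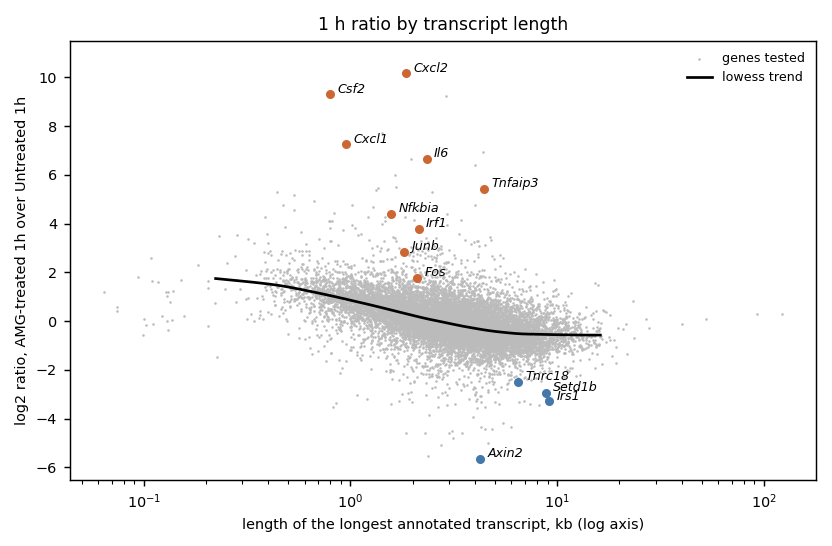
Each point is 1 of the genes tested, by the length of its longest annotated transcript in kb (horizontal, log axis) and its log2 ratio at 1 h (vertical), and the line is the smooth trend that the length correction subtracts. The trend runs downward with length, while the named inflammatory genes, from Irf1 at 3.77 to Cxcl2 at 10.16, lie above it and Axin2 (-5.66) below it.

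At 1 h 1641 genes (12.2% of those tested) were higher with AMG and 1341 (9.93%) were lower. The counts of every list below stand beside these shares, and nothing is read from a count near them. The median ratio of all genes was -0.04. After the length correction 1051 genes were above 1 and 878 below -1 (7.9% and 6.6% of 13307). Both criteria were met by 770 higher genes (5.79%) and 689 lower genes (5.18%). Rescaling the 2 libraries to equal totals in place of the authors' size factors moved the median of all genes by -0.21, and the share of calls on the higher side was 34.9% instead of 55.0%. A gene with a ratio near 1 can thus be called under 1 scaling and not under the other.

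**Figure D2:**
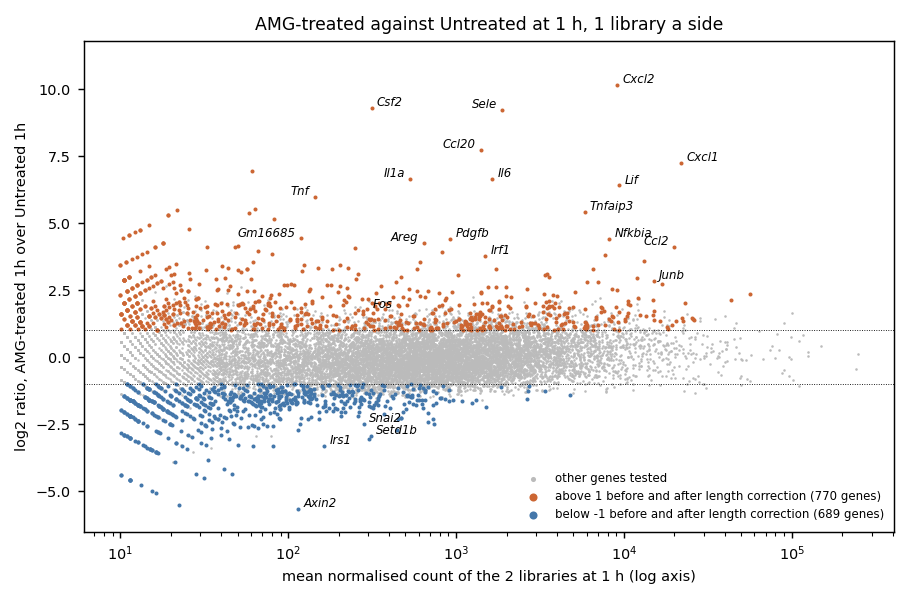
The log2 ratio of each gene (vertical) is plotted against its mean normalised count in the 2 libraries (horizontal, log axis), with the 770 genes above 1 and the 689 below -1 before and after the length correction in colour. The largest distances from 0 were on the higher side, up to 10.16 for Cxcl2, while the lowest gene with a mean of at least 100 was Axin2 at -5.66.

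The 15 highest genes with a mean of at least 100 were Cxcl2, Csf2, Sele, Ccl20, Cxcl1, Il6, Il1a, Lif, Tnf, Tnfaip3, Gm16685, Pdgfb, Nfkbia, Areg and Ccl2. They are secreted signals of inflammation, a leukocyte adhesion molecule (Sele), 2 brakes of NF-kB (Tnfaip3 and Nfkbia), the growth factors Pdgfb and Areg, and a transcript annotated as antisense to Il7 (Gm16685). Their ratios ran from 4.11 to 10.16 before and from 3.07 to 9.86 after the length correction. In all 15 the AMG-treated value exceeded each of the 4 untreated libraries of replicate 1 (19.2% of all genes did), but nothing is read from this, since 1 of the 4 libraries, Untreated 1h, had served to choose the genes. Over all genes, 821 were both higher and above those 4 libraries (6.08%), and 838 were both lower and below them (6.21%).

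The neutrophil attractant Cxcl2 (chromosome 5, 90903871 to 90905938, GENCODE M21 on GRCm38, the build mm10 of the files) stood at 14.9 normalised counts without AMG and at 18284 with it, from 17 and 10515 reads. This is a log2 ratio of 10.16 and a plain fold of 1224, with an exact 95% interval of 764 to 2101 that covers counting error only, as do all intervals given. Its neighbour Cxcl1 (chromosome 5, 90891241 to 90893115) stood at 287 and 43677, a ratio of 7.25. In the AMG-treated library Cxcl1 was thus among the abundant transcripts, whereas Cxcl2 had few reads in the Untreated library. The granulocyte-macrophage colony stimulating factor Csf2 (chromosome 11, 54247271 to 54249667) had 0 reads without AMG and 361 with it. Against a floor of 3 reads in the Untreated library this is at least 238-fold higher. The E-selectin gene Sele (chromosome 1, 164048234 to 164057677), best known from endothelium, where the protein slows rolling leukocytes, had 6 and 2173 reads, or 5.27 and 3778 normalised counts. Of the 6 endothelial markers 2 were above the filter, Cdh5 (6.15 and 17.4 normalised counts, ratio 1.36) and Tek (ratio -0.93). Under it, Pecam1 had 6.15 and 5.22 normalised counts, and Emcn was at 0 reads in both libraries. Kdr (0.82) and Vwf (-3.16) were also under the filter. The list summed to 80.9 normalised counts without AMG and 59.1 with it.

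The chemokine list held 17 genes, all above the filter, of which 13 were higher and 0 lower, against 12.2% and 9.93% of all genes. Its median ratio was 2.16, and 2.22 after the length correction. After Cxcl2, Ccl20 and Cxcl1 followed Ccl5 (3.52 and 162 normalised counts), the monocyte attractant Ccl2 (2195 and 37849) and Cxcl3 (101 and 1554). Ccl2 and Ccl7, and Cxcl1, Cxcl2 and Cxcl3, are related genes that lie close together, and reads that the aligner placed at more than 1 site were dropped, so the split of reads within these groups is uncertain. Ccl20, which draws cells that carry the receptor CCR6, had a ratio of 7.73. The homeostatic chemokines Cxcl12 and Cxcl14, which fibroblasts make without a stimulus, had ratios of 0.36 and 0.40 and Cx3cl1 of 0.01. None of these 3 was called.

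The cytokine list had 15 of 16 genes above the filter, with 11 higher, 0 lower and a median of 2.30 (1.90 after the correction). Il6, the main driver of the acute phase response, stood at 31.6 and 3262 normalised counts (ratio 6.64). Il1a, an alarm signal that works through the interleukin-1 receptor, stood at 9.67 and 1061 (also 6.64). Lif, an interleukin-6 family member named in the study among wound healing genes, stood at 217 and 18520 (6.41), and Tnf at 3.52 and 285 (5.99). Without AMG these 4 genes were low, and Tnf was near the floor. Csf3 (40.4 and 226), Tnfsf11 (672 and 3319), Tslp (711 and 2589) and Il11 (2886 and 7136) were higher by smaller ratios, from 1.31 to 2.45. Csf1, which keeps macrophages alive, stood at 80680 and 78732 (-0.04). The receptor antagonist Il1rn stood at 99.3 and 78.2 (-0.34), and Il1b had 3 reads without AMG and 0 with it, under the filter.

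NF-kB itself was described by 19 genes for its subunits, inhibitors and feedback enzymes, with 14 higher, 0 lower and a median of 1.92 (1.62 after the correction). The feedback genes had the largest ratios. Tnfaip3, which encodes the ubiquitin-editing enzyme A20, stood at 265 and 11398 normalised counts (5.42), and Nfkbia, which encodes IkB-alpha, at 738 and 15590 (4.40). Nfkbiz, a nuclear IkB protein, stood at 1212 and 11836 (3.29), Traf1 at 4.39 and 95.6 (4.16) and Birc3 at 250.5 and 1337 (2.41). The subunits were higher by less: Nfkb1 had a ratio of 1.92 and Relb of 1.62, while Nfkb2 (0.91), Rel (0.97) and Rela (0.34) were between -1 and 1. After the length correction Nfkb2 was at 1.18 and Rel at 1.51, while Rela was at 0.36, and 16 of the 19 genes were above 1. Cyld, a deubiquitinase that restrains the pathway, was the single member below 0, at -0.41 before and 0.13 after the length correction. The AMG-treated value exceeded all 4 untreated libraries of replicate 1 in 18 of the 19 genes (19.2% of all genes did). Since 1 of the 4, Untreated 1h, is also the base of the ratio, nothing further is read from this.

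Promoters are printed here because the genes that stood furthest apart are textbook NF-kB targets. Those of Fos and Junb are added as immediate early genes, and the route that acts on them was not tested. Each line gives bases before the RefSeq start site (GRCm38.p6), read 5′ to 3′ on the strand of the gene, and bases that GENCODE places inside the gene are left out. For Cxcl2, Cxcl1, Nfkbia, Il6 and Irf1 the capitals mark matches to the NF-kB consensus of 10 letters. In Il6, Fos and Junb capitals mark the core of the cyclic AMP response element, TGACG or its complement CGTCA. The lines of Fos and Junb were not marked for the NF-kB consensus.
Cxcl2 (chr5:90903749-90903870, + strand): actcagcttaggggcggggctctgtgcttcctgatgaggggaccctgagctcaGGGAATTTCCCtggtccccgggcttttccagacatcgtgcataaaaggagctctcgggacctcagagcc
Cxcl1 (chr5:90891095-90891240, + strand): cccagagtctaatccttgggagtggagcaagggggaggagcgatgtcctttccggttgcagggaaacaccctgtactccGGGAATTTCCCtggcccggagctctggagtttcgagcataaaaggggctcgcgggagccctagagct
Nfkbia (chr12:55492648-55492797, - strand): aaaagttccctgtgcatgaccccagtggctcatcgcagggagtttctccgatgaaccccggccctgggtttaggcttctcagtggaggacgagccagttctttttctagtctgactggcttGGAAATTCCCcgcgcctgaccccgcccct
Il6 (chr5:30012964-30013113, + strand): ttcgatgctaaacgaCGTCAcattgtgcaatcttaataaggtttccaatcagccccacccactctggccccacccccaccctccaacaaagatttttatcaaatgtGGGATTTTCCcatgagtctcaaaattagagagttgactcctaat
Irf1 (chr11:53769864-53770013, + strand): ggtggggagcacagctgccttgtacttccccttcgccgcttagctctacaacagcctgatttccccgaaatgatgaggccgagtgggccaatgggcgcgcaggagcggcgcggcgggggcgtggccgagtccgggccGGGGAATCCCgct
Fos (chr12:85473740-85473889, + strand): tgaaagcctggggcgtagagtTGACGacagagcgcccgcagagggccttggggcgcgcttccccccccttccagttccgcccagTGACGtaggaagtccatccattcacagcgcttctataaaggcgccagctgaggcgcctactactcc
Junb (chr8:84978749-84978898, - strand): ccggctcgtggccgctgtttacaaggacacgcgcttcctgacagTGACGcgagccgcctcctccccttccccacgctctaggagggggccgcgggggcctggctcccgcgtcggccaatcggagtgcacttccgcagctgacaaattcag
Counted backward from the start site, the NF-kB matches lay at -97 to -87 in Cxcl2 and -71 to -61 in Cxcl1, where 2 overlapping matches covered the same 11 bases in both genes. They lay at -44 to -35 in Il6, -29 to -20 in Nfkbia and -13 to -4 in Irf1. In Fos the core of the response element was found at -129 to -125 and at -66 to -62, and in Junb at -106 to -102.

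Over both strands of the 250 bases before the start, the NF-kB consensus was found in 445 of 9832 tested genes with a promoter sequence (4.53%). Among the genes above 2 before and after the length correction, 166 in all (1.25% of genes), 109 had a promoter sequence and 21 of these held the motif (19.3%). Among the genes above 1 before and after the correction that did not pass 2 in both, the motif was found in 23 of 398 (5.78%). Among those below -1 before and after the correction it was found in 11 of 462 (2.38%). By list, 6 of 11 chemokine promoters held it, 8 of 16 of the NF-kB list, 2 of 10 of the cytokines, 3 of 6 of the Fos and Jun genes and 1 of 14 of the immediate early transcription factors other than Fos and Jun. The AP-1 motif TGANTCA with C or G at the N stood in 15 of the 109 promoters (13.8%) and in 3.17% of all. By list it was found in 4 of 10 of the cytokines, 2 of 16 of the NF-kB list and 1 of 11 chemokine promoters. It was found in 0 of 6 of the Fos and Jun genes and 0 of 14 of the other immediate early transcription factors. The core of the cyclic AMP response element stood in 25 of the 109 (22.9%) and in 27.6% of all, and in 3 of the 6 Fos and Jun promoters. A TATAAA within 50 bases before the start stood in 16 of the 109 (14.7%) and in 1.75% of all. A match of letters is not a binding site, and these shares are descriptions of the genes that the ratio had picked.

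Interferon regulatory factor 1 (Irf1, chromosome 11, 53770014 to 53778374), an early transcription factor of inflammatory signals, stood at 203 and 2789 normalised counts, a ratio of 3.77. In the 3 later untreated libraries of replicate 1 it stood between 374 and 642, so the AMG-treated 1h value was above every untreated library and the Untreated 1h value was below the later ones. The C/EBP factors, which act with NF-kB on acute phase genes, were also higher in part: Cebpb stood at 776 and 4524 (2.54) and Cebpd at 649 and 1492 (1.20), while Cebpa (0.64) and Cebpg (0.56) were not called. Of 15 interferon-stimulated genes above the filter 5 were higher and 1 lower, with a median of 0.65 (0.66 after the correction). Isg15 stood at 77.3 and 376 (2.27) and Ifit2 at 115 and 53.9 (-1.08, and -0.82 after the correction). The list median at 12 h was 3.27, and at 24 h it was -0.38.

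**Figure D3:**
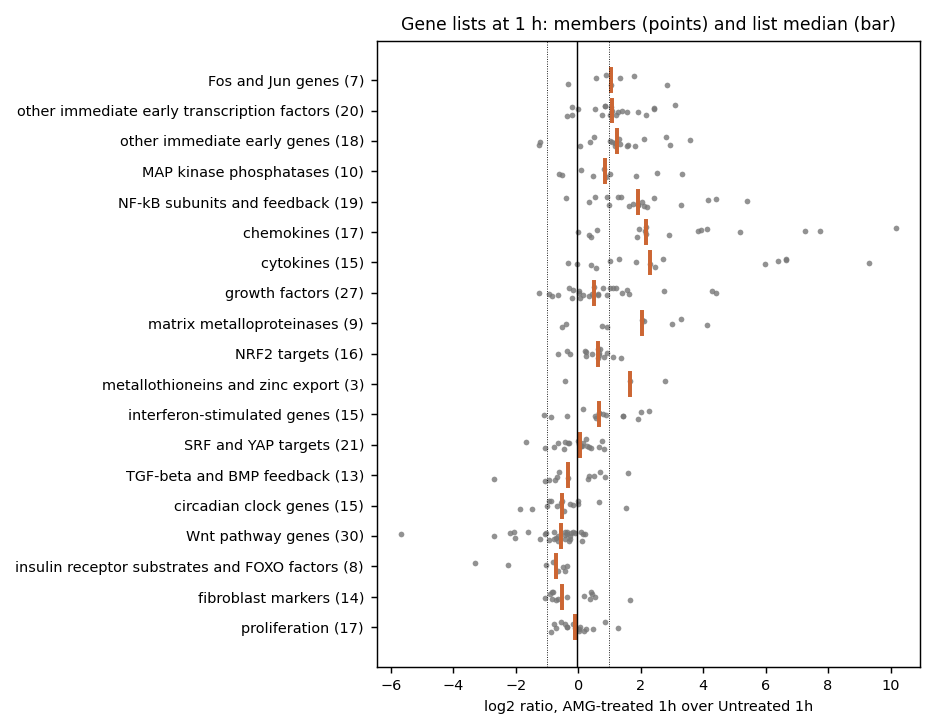
Points are the log2 ratios at 1 h of the members of 19 gene lists (number of members tested in brackets), bars are list medians, the solid line is the median of all genes (-0.04) and the dotted lines mark -1 and 1. Chemokines, cytokines and NF-kB genes reach furthest to the right, with medians of 2.16, 2.30 and 1.92. The lists of Wnt pathway genes and insulin receptor substrates were drawn up after Axin2 and Irs1 had been seen, so their place on the left was set by that choice.

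The Fos and Jun genes encode the subunits of AP-1, the factor on which the study centres. Of the 7 genes 4 were higher and 0 lower, with a median of 1.05 (1.19 after the correction). Junb, at 3667 and 26491 normalised counts (2.85), had the largest ratio. Fos stood at 132 and 457 (1.79), Fosb at 638 and 1610 (1.33) and Jun at 2174 and 4500 (1.05). Under rescaling to equal totals Jun was at 0.84, so its call rests on the scaling. Jund (0.88) and Fosl1 (0.58) were not called. Fosl1, which encodes Fra-1, stood at 3079 and 4587, and Fosl2, at 7756 and 6215, had a ratio of -0.32 before and 0.20 after the length correction.

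Of the 20 other immediate early transcription factors 12 were higher and 0 lower, with a median of 1.07 (1.23 after the correction). Egr1 stood at 724 and 6234 normalised counts (3.10), Csrnp1 at 1608 and 8619 (2.42), Egr2 at 446 and 2377 (2.41), and Egr4 at 100.2 and 454 (2.17). All 4 Egr genes, which encode zinc finger activators of growth factor responses, were thus higher, Egr3 with a ratio of 1.92. The orphan nuclear receptor genes Nr4a1 (7479 and 22307, ratio 1.58), Nr4a2 (1.27) and Nr4a3 (1113 and 2036, ratio 0.87) had smaller ratios. After the correction Nr4a3 was at 1.35, and 11 of the 20 genes were above 1. Srf (-0.20), Klf5 (-0.19) and Snai1 (-0.34) were the 3 members below 0.

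Among 18 immediate early genes that encode other proteins, 13 were higher and 2 lower, with a median of 1.24 (1.18 after the correction). Ier3, a survival gene of NF-kB, stood at 2014 and 24270 (3.59), Btg2, an inhibitor of proliferation, at 2754 and 21323 (2.95), and Phlda1 at 1775 and 12339 (2.80). Ier5l (1273 and 541, ratio -1.23) and Gadd45g (3807 and 1579, ratio -1.27) went the other way. Gadd45b, a relative of Gadd45g, stood at 1673 and 3754 (1.17, and 0.52 after the correction).

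In the Untreated library at 1 h many immediate early genes already stood above their later untreated levels. Fosb was at 638 normalised counts without AMG at 1 h and at 62.0 to 88.5 in the 3 later untreated libraries. Nr4a1 was at 7479 against 724 to 1413, Nr4a3 at 1113 against 24.9 to 164, and Dusp4 at 2472 against 126 to 190.3. Of the 20 other immediate early transcription factors 10 stood more than 1 on the log2 scale above the median of those 3 libraries, as did 3 of the 7 Fos and Jun genes, against 7.12% of all genes. Of the 15 cytokines 8 did and of the 27 growth factors 14, but of the 17 chemokines 1 (Ccl20) and of the 19 NF-kB genes 3. The list medians of this difference were 1.02 for the other immediate early transcription factors and 0.54 for the Fos and Jun genes. They were 1.21 for the cytokines, 0.02 for the chemokines and 0.30 for the NF-kB genes. The difference was not particular to these lists. It passed 1 in 10 of 10 cholesterol synthesis genes (median 1.71) and 3 of 3 metallothionein and zinc export genes (1.77). It also did in 7 of 13 ERK feedback and ETS genes (1.12) and 7 of the 11 wound healing genes that the study names (1.34). Of 15 interferon-stimulated genes and of 12 heat shock genes 0 passed 1. Both cultures had been scratched, and with 1 library at each time the scratch, the handling and the culture cannot be told apart. This difference and the ratio of AMG-treated over Untreated share the Untreated 1h library, so no relation between them is given.

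**Figure D4:**
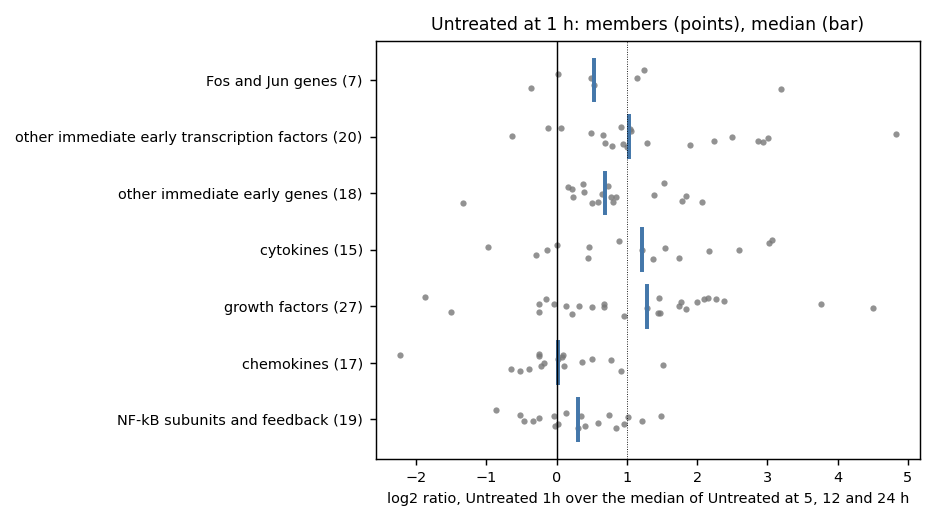
Points are the members of 7 gene lists (number tested in brackets) by the log2 ratio of Untreated 1h over the median of the untreated libraries at 5, 12 and 24 h of replicate 1, bars are list medians, the solid line marks 0 and the dotted line 1. The bars of the other immediate early transcription factors (1.02), the cytokines (1.21) and the growth factors (1.29) lie right of the dotted line, and those of the chemokines (0.02) and the NF-kB genes (0.30) near 0.

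MAP kinase signals are shut off by phosphatases that the same signals induce. Of 10 phosphatase genes above the filter 4 were higher and 0 lower (median 0.87). After the length correction 5 were above 1, with Dusp16 at 0.83 before and 1.26 after it. Dusp8 stood at 40.4 and 416 normalised counts (3.33), Dusp5, which acts on ERK in the nucleus, at 2510 and 14554 (2.54), Dusp6 at 1672 and 6004 (1.84) and Dusp10 at 1295 and 2633 (1.02). Dusp4, at 2472 and 1725, had a ratio of -0.52. Of 13 ERK feedback and ETS genes 4 were higher, Spry2 (1.86), Ets1 (1.65), Errfi1 (1.44) and Spry4 (1.41), and 0 were lower, while the list median was -0.11 (0.24 after the correction). The mRNA decay factor Zc3h12a, which encodes Regnase-1, stood at 714 and 6028 (3.08), and Zfp36, which encodes tristetraprolin, at 1389 and 5204 (1.91). Both cut short the life of cytokine transcripts. The other 4 decay factors were not called, though Rc3h1 was at 0.67 before and 1.23 after the correction.

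Of 27 growth factor genes 9 were higher, 1 was lower and 17 lay between, with a median of 0.52. Among all genes 12.2% were higher and 9.93% lower. After the length correction 7 of the 27 were above 1 and 0 below -1, with a median of 0.56. Pdgfb stood at 82.6 and 1768 (4.40), the EGF receptor ligands Areg at 62.4 and 1228 (4.28) and Ereg at 4404 and 29395 (2.74), and Vegfa at 11350.2 and 24729.5 (1.12). Tgfa, another ligand of the EGF receptor, stood at 71.2 and 29.6 (-1.24, and -0.87 after the correction), and Inhba, a subunit of activin, at 18647 and 10421 (-0.84, and -0.33 after the correction).

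Matrix metalloproteinases cut collagen and other matrix proteins. Of 9 genes above the filter 5 were higher and 0 lower, with a median of 2.04 (1.77 after the correction). The stromelysins Mmp10 (804 and 6402 normalised counts, ratio 2.99) and Mmp3 (4030 and 17282, ratio 2.10) and the collagenase Mmp13 (1162 and 4770, ratio 2.04) were higher. Mmp1b (9.67 and 104, ratio 3.30) and Mmp1a (3 and 36 reads, ratio 4.13) were higher from few reads, and since they are close relatives and Mmp1b overlaps Mmp12, their reads are uncertain. The constitutive genes Mmp14 (-0.40) and Mmp2 (-0.51) were not called. At 12 h the list median was 5.74 and at 24 h 5.81.

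Of the 11 wound healing genes that the study names, 9 were higher and 0 lower at 1 h, with a median of 2.07. The study picked them from these samples at 5 h, so their direction is not independent evidence. Besides those given above they include Ptgs2 (16262 and 70488, ratio 2.12), which makes prostaglandins, Nos2 (7.91 and 36.5, from 9 and 21 reads, ratio 2.07), Flt1 (72.1 and 123, ratio 0.77) and Hmox1 (7967 and 12631, ratio 0.66). After the correction Hmox1 was at 0.21 and Flt1 at 1.30, and 10 of the 11 genes were above 1. Of the 8 predicted regulators above the filter 2 were higher, Bcl3 (190 and 725, ratio 1.93) and Foxo6 (7 and 11 reads, ratio 1.49), and Mms19 was lower (851 and 376, ratio -1.18, and -0.66 after the correction).

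Genes that make and shape the matrix around a wound were higher in part. Of 19 prostaglandin, hyaluronan and pericellular protease genes 8 were higher and 0 lower, with a median of 0.56. Has1, a hyaluronan synthase, stood at 105 and 836 (2.99), the plasminogen activator inhibitor Serpinb2 at 2737 and 15392 (2.49), and the urokinase gene Plau at 9088 and 37228 (2.03). Of 17 innate receptors and adhesion molecules 3 were higher: Nod2 (20.2 and 228, ratio 3.43), Icam1 (552 and 3438, ratio 2.64) and Vcam1 (2183 and 6642, ratio 1.60). Nod1 (-1.57) and Il6ra (-1.32) were lower, and Il6ra was at -0.77 after the correction. Il1rl1 (0.86) and Cd44 (0.59) were at 1.31 and 1.05 after it.

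Stress programmes had small medians, apart from the metallothionein and zinc export genes. The counts of these lists stand beside 12.2% of all genes higher and 9.93% lower. Of 16 NRF2 targets, which defend against oxidants, 2 were higher (Prdx1 at 1.37, and Fth1 at 1.10 before and 0.60 after the correction) and 0 lower, with a median of 0.63 that was 0.33 after the correction. Of 12 heat shock genes 2 were higher, Hspe1 (1.30, and 0.23 after the correction) and Dnajb1 (1.11), and of 15 genes of the unfolded protein and integrated stress response 2 were, Dnajb9 (1.45) and Ddit4 (1.32, and 0.96 after the correction). The metallothionein Mt2 stood at 1528 and 10591 (2.79, and 1.41 after the correction) and Mt1 at 1658 and 5190 (1.65 and 0.86), both short transcripts. The zinc exporter Slc30a1 stood at 703 and 523 (-0.43). The median of these 3 genes was 1.65 with 2 higher, and after the correction it was 0.86 with 1 above 1. Of 10 p53 targets 1 was higher (Pmaip1, 1.43), and of 12 glycolysis and hypoxia genes Ndrg1 (1.67) and Egln3 (1.20) were higher and Pfkfb3 (-1.02, and -0.62 after the correction) lower. Of 10 cholesterol synthesis genes Idi1 (1.18) and Insig1 (1.15) were higher. Of 8 glucocorticoid receptor targets Errfi1 and Cebpd, named above, were higher.

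On the lower side, Axin2 (chromosome 11, 108920349 to 108950783), a negative regulator and common readout of Wnt signalling, stood at 226 normalised counts without AMG and 3.48 with it, from 257 and 2 reads. Its log2 ratio was -5.66 (-5.33 after the correction), and with 2 reads the ratio AMG-treated over Untreated was 0.0154, with an exact interval of 0.00185 to 0.0562. In the 3 later untreated libraries Axin2 stood between 86.9 and 150.02, and with AMG it stood at 219, 76.2 and 43.2 at 5, 12 and 24 h. The low value was thus that of a single library, at 1 h.

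Irs1 (chromosome 1, 82233101 to 82291416), which couples the insulin and IGF receptors to their kinases, stood at 299 and 29.6 normalised counts (340 and 17 reads), a ratio of -3.29. Its relative Irs2 stood at 69.4 and 13.9 (-2.24). Snai2 (chromosome 16, 14705852 to 14709385), which encodes the mesenchymal repressor Slug, stood at 478 and 85.2 (-2.47, and -2.70 after the correction). Smad9, a signal carrier of BMP receptors, had 70 and 5 reads (-2.69). Of these genes Snai2 was lower by more than 1 at each later time of replicate 1 too, with ratios of -1.68, -1.61 and -1.81, whereas Irs1 had ratios of 0.76, -0.08 and -0.58.

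The other 12 of the 15 lowest genes were 2610008E11Rik, Setd1b, Zfp324, Dvl3, Pdpr, Tnrc18, Nynrin, Zfp316, Soga1, A430105I19Rik, Zfp74 and Prr12, with ratios from -3.06 to -2.27. They encode 3 zinc finger proteins (Zfp324, Zfp316 and Zfp74), the histone methyltransferase Setd1b, the Wnt signal transducer Dvl3 and others, and the median transcript of the 15 genes was 4938 bases long. Their AMG-treated value lay below all 4 untreated libraries in 12 of the 15 genes (in 21.6% of all genes), and here too Untreated 1h is 1 of the 4 and had served to choose them. The exceptions were Setd1b, Dvl3 and Soga1, for which Untreated 5h replicate 1 was lower still, a library with 7.07% of its reads in ribosomal protein genes.

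Around Axin2, 30 Wnt pathway genes were above the filter, a list drawn up after Axin2 had been seen. Of these 9 were lower and 0 higher, with a median of -0.54, which was -0.17 after the length correction. Beside Axin2 and Dvl3 the lowest were the receptor gene Fzd8 (-2.20), Bcl9l (-2.07), Prickle1 (-2.02) and Bcl9 (-1.60), and the transcription factor genes Lef1 (-0.16) and Tcf7l2 (0.12) were near 0. Of 8 insulin receptor substrate and FOXO genes, likewise added afterwards, 3 were lower, Irs1, Irs2 and Igf1r (-1.02, and -0.45 after the correction). Of 24 mesenchymal transcription factor genes, the third added list, 4 were higher, led by Meox1 (2.87), and 4 were lower, Snai2, Osr1 (-2.04), Atoh8 (-1.84) and Meox2 (-1.43).

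Clock genes had a median of -0.53 over 15 genes, and -0.14 after the correction, with 1 higher and 3 lower. The counts of this and the next lists stand beside 12.2% of all genes higher and 9.93% lower. Bhlhe40, also an early stress gene, stood at 3531 and 10113 (1.52), Per2 at 254.0 and 69.6 (-1.85), Ciart at 50.1 and 17.4 (-1.47) and Cry2 at 896 and 445 (-1.01, and -0.72 after the correction). Of 14 FOXO and growth-factor-repressed genes Txnip (4816 and 1991, ratio -1.27) and Irs2 were lower and Ccng2 (722 and 1614, ratio 1.16) was higher. Of 13 genes of TGF-beta and BMP feedback Tgif1 (1.59) was higher, and Id3 (3676 and 1749, ratio -1.07) and Smad9 were lower. Of 21 SRF and YAP targets, which report on actin and tension, 0 were higher and 2 lower (9.93% of all genes were), Ajuba (1895 and 588, ratio -1.69) and Flna (-1.05, and -0.51 after the correction), with a median of 0.06. Of 17 proliferation genes 1 was higher (Pcna, 1.27, and 0.78 after the correction), with a median of -0.12.

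RNA of other cell types was sparse. Of 15 keratinocyte markers 6 were above the filter, with 1 higher (Krt10, 67.7 and 156), and the list summed to 411 normalised counts without AMG and 598 with it. The basal keratin Krt5 and the suprabasal Krt1 were at 0 reads in both libraries, and Krt14 had 0 and 2 reads. Of 14 leukocyte markers 8 were above the filter, and the list summed to 1571 and 2224, or to 1360.5 and 1210.2 without Cd14. Of the 8 genes 6 were below 0, with a median of -0.24, which was -1.09 after the correction, with 1 then higher and 4 lower. Cd14 was higher (210.1 and 1014, ratio 2.27), and Itgam was lower (34.3 and 5.22), while Ptprc, carried by all leukocytes, had 14 and 1 reads, and Cd3e, Cd79a and S100a9 were at 0 in both. Of 9 skeletal muscle markers 3 were above the filter (sums 2575 and 2231, Myod1 at 0 in both), of 7 adipocyte markers 2 (683 and 1287, Adipoq, Cidec and Lep at 0), of 6 endothelial markers 2 (80.9 and 59.1) and of 5 red blood cell markers 0 (0 and 1.74). In bulk RNA, fewer cells of a type and less RNA per cell cannot be told apart, and any part of such cells in the ratios was not tested.

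The later libraries, which share none of the 1 h RNA, were read at the same genes. Of the 166 genes above 2 before and after the length correction, 100 were above 1 in replicate 1 at 5 h, 85 at 12 h and 76 at 24 h, against 13.6%, 5.9% and 6.09% of all genes. Below -1 were 24, 24 and 18 of them, against 12.6%, 7.29% and 8.35%. Of the 166, 59 were above 1 at all 4 times and 44 at no later time. Among all 13505 genes, 275 were above 1 at each of 5, 12 and 24 h and 11026 at none of these times. In replicates 2 to 4 at 5 h, the 3 treated values lay above the 3 untreated values for 84 of them (50.6%, against 14.9% of all genes) and below for 0 (against 13.3%). Of the 15 highest genes 13 were separated in this way, the exceptions being Tnf and Pdgfb.

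Of the 271 genes below -1.5 before and after the correction (2.04% of genes), 46 were below -1 at 5 h in replicate 1 (17.0%). At 12 h 44 were (16.2%) and at 24 h 60 (22.1%). The shares of all genes below -1 at these times were 12.6%, 7.29% and 8.35%. More of the 271, 70 (25.8%), were above 1 at 5 h, against 13.6% of all genes, and their median there was 0.33 (0.21 after the correction). Above 1 at 12 and 24 h were 11 and 13 of them (4.06% and 4.80%, against 5.9% and 6.09% of all genes). In replicates 2 to 4 the 3 treated values lay below the 3 untreated ones at 5 h for 82 of the 271 (30.3%, against 13.3% of all genes). They lay above for 10 (against 14.9% of all genes). Of the 15 lowest genes 7 were above 1 and 1 below -1 at 5 h in replicate 1, with a median of 0.76, and 0 were above 1 at 12 or 24 h. In replicates 2 to 4 at 5 h 8 of the 15 were separated downward, among them Snai2, Dvl3 and Tnrc18, and Axin2 and Irs1 were not.

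Lists differed in how their medians went on. The Fos and Jun median was 1.05 at 1 h and 0.19, 0.53 and 0.23 at 5, 12 and 24 h, and that of the other immediate early transcription factors was 1.07 and then 0.51, 0.03 and 0.13. Junb, with 26491 normalised counts with AMG at 1 h, had 2499.55 at 5 h, when the untreated value was 3149. The chemokine median was 2.16 and then 1.40, 2.15 and 2.10, and the NF-kB median 1.92 and then 1.71, 1.02 and 1.13. Cxcl2 stood at 18284 with AMG at 1 h and at 1887, 1279.85 and 947 at the later times, against 7.32 to 14.8 untreated, so it was still far apart while its own level with AMG was lower. Tnfaip3 stood at 11398 and then at 1872, 456 and 652. Irf1 stood at 2789 with AMG at 1 h and had a ratio of -0.52 at 5 h in replicate 1. Differences between times rest on 1 library a point and were not tested.

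**Figure D5:**
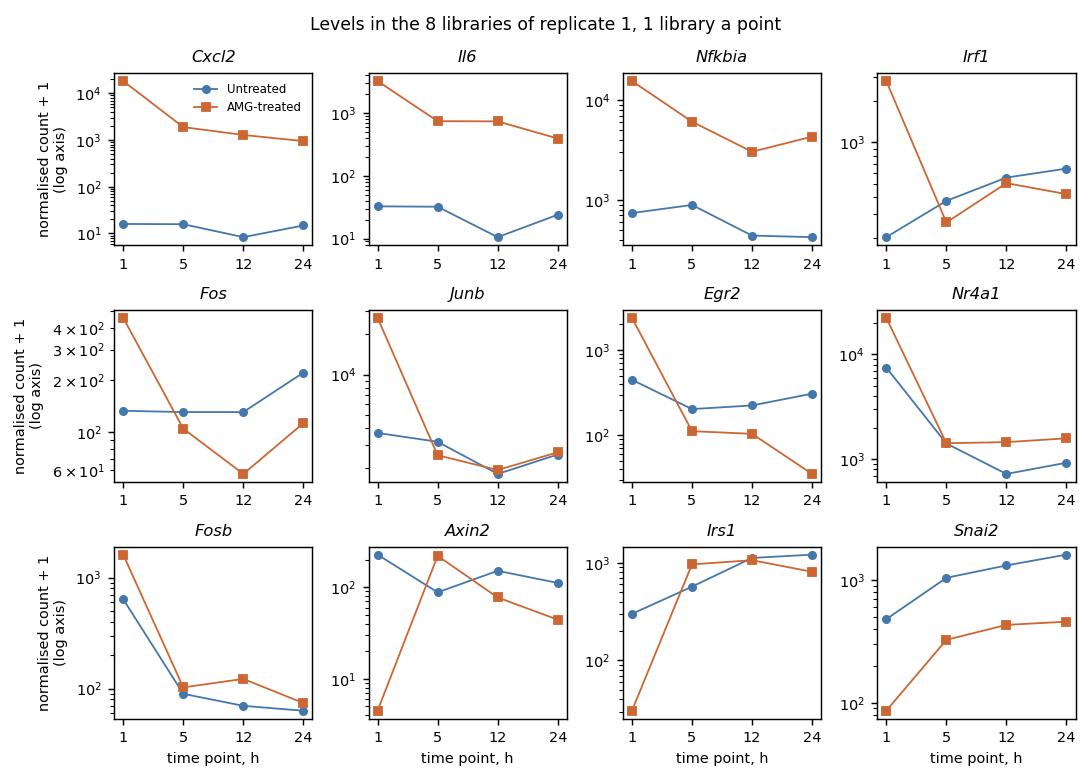
Normalised counts plus 1 (vertical, log axes of different range) at 1, 5, 12 and 24 h (horizontal, not to scale) for 12 genes in Untreated (circles) and AMG-treated (squares) libraries of replicate 1, 1 library a point. Cxcl2, Il6 and Nfkbia stay above the untreated line at all 4 times, Irf1, Fos, Junb and Egr2 meet or cross it by 5 h, and Axin2 and Irs1 have their lowest AMG-treated value at 1 h.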

How the data were processed

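RNA was sequenced from wounded mouse tail-tip fibroblasts with and without AMG, and groups were taken from the sample titles. Per the labels and the methods, the authors made stranded poly(A) libraries, aligned reads to mm10 with TopHat2 2.0.13, kept unique alignments and counted them per gene with HTSeq 0.5.3p3. The annotation release and the strand setting are not given in the sources used here, which leaves overlapping and antisense genes uncertain. What was deposited is a signal, the read count of a gene that the authors divided by DESeq size factors. Divided by the smallest step of its library, 100% of values were whole reads (tolerance 0.1). No count test was run, since each side holds 1 library. Levels were compared only within the table of replicate 1, and the table of replicates 2 to 4 was read only within itself.

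Log2 ratios used a pseudocount of 1. The length correction subtracted a lowess curve (span 0.3, statsmodels 0.14.6) of the ratio on log2 transcript length from GENCODE M21, fitted outside the ribosomal proteins, for the 98.5% of tested genes with a length. Both steps were tested on simulated data. Counting intervals are exact 95% binomial intervals, and reads carry no molecular identifiers, so intervals and floors cover counting error only. Promoter sequences are from RefSeq (GRCm38.p6) and matched 9832 of the 13505 genes. The genes named are the 15 highest and 15 lowest with a mean of at least 100 whose sign holds after the length correction, the 5 highest with a mean of 10 to 100, all Fos, Jun and study-listed genes, and up to 6 members of every other list by size of the ratio with up to 3 of the opposite direction, and some further members are named for contrast, chosen after their values were seen. The members and the lists were chosen with earlier results of these data known, and 3 lists (Wnt, mesenchymal transcription factors, insulin receptor substrates) and the symbol families after the 1 h values were seen.

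The alternatives were pseudocounts of 0.1 and 10, no filter, a mean of at least 50, rescaling to equal totals or upper quartiles, and the length correction. Added after seeing the data were the length correction with rescaling to totals, and the demand that the AMG-treated value also lie outside all 4 untreated libraries of replicate 1.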

Additional observations from a re-analysis of the deposited data

Results flagged for a closer look

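For 8 named genes the 1 h ratio had the opposite sign to all 4 pairs at 5 h (replicates 1 to 4), a difference between times that was not tested. Irf1, the interferon regulatory factor, stood at a ratio of 3.77 on the log2 scale, and at 5 h between -0.64 and -0.52. Egr2 had 2.41 and then -0.86 to -0.02, and Fos had 1.79 and then -1.38 to -0.32. Ccng2, a FOXO target, had 1.16 and then -0.77 to -0.34, and Insig1, a sterol sensor, had 1.15 and then -0.62 to -0.40. Tmsb15b1, with 0 and 22 reads at 1 h, had 5.29 and then -1.32 to -0.24. Lower at 1 h and above 0 at 5 h were Cry2 (-1.01, then 0.03 to 0.75) and Pfkfb3 (-1.02, then 0.16 to 0.69), but after the length correction they stood at -0.72 and -0.62 at 1 h and were no longer called, and Cry2 was at -0.99 with a pseudocount of 10. The other 6 stayed above 1 after the correction, while under rescaling to equal totals Ccng2 was at 0.95 and Insig1 at 0.94. The ratios of replicate 1 at 1 h and at 5 h depended on transcript length with opposite sign, and the part of length in the differences between times was not tested.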

How the results depend on the processing

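The count of higher genes, 1641, was 3274 without the filter on low values, 1051 with the length correction, 1057 with that correction after rescaling to equal totals, and 821 when the AMG-treated value also had to exceed all 4 untreated libraries of replicate 1. The count of lower genes, 1341, was 3007, 878, 875 and 838 under the same settings, 891 with a mean of at least 50, and 2132 after rescaling to equal totals. The other settings kept both counts within 1.5 times. The medians of the Fos and Jun genes, the other immediate early transcription factors, the NF-kB genes, the chemokines and the NRF2 targets stayed within the 95% order-statistic interval of each list over its genes under each setting. For the 7 Fos and Jun genes that interval ran from the lowest member (-0.32) to the highest (2.85), so their median could hardly leave it. These intervals measure the spread between genes, which are not independent replicates, and not the error of the 1 h comparison. A median can thus move and stay inside. That of the NRF2 targets was 0.63, and 0.33 after the length correction, in an interval of 0.23 to 0.83. Of the 140 named genes past 1 or -1, 121 stayed past it under the length correction, 128 under rescaling to equal totals and 133 with a pseudocount of 10, and 0 changed sign in these settings. No paired analysis was possible because the 1 h comparison has 1 library a side and comes from no test, and leaving out a replicate could not be run for the same reason. At the depth of 13889352 reads in the AMG-treated library, a gene under 5.22 normalised counts there has under 3 reads.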

Other observations

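The genes in the next sentences were chosen after their values were seen. They were picked one by one among the genes above 2 before and after the length correction, and stand for no group. Socs3 and Cish, which encode inhibitors of cytokine receptor signals, had log2 ratios of 2.32 and 2.23, and the kinase gene Pim1 had 2.28. The small GTPase genes Rnd1, Gem and Rrad stood at 3.29, 2.45 and 2.54. Gch1, which makes the cofactor of nitric oxide synthases, stood at 2.79, the bradykinin receptor gene Bdkrb1 at 3.10 and Angptl4 at 2.04.

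Symbol families were tallied without a test, beside 12.2% higher and 9.93% lower among all genes. Of 314 zinc finger genes named Zfp, 108 were lower and 7 higher, and 79 and 6 after the length correction. Of 13 protocadherin genes of the Pcdhg cluster, which share exons, 10 were lower and 0 higher, and of 23 Hox genes 8 were lower and 1 higher (11 and 0 after the correction). Of 45 Nduf genes for subunits of respiratory complex I, 29 were higher before and 3 after the correction, and 0 were lower in either. Of 35 collagen chain genes 7 were lower before and 0 after it.

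Genes with a mean of 10 to 100 stood far apart too. Tmem132e had 0 and 70 reads, at least 46.2-fold higher against a floor of 3 reads, Il23a had 0 and 25, Krt36 had 2 and 72, and C2cd4b had 2 and 66. Krt36 and C2cd4b had log2 ratios of 5.52 and 5.39.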
